A study of Mus musculus with 29 samples.

Results

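Small nucleolar RNAs (snoRNAs) and their Cajal body relatives were examined in 29 RNA-seq libraries of mouse blood stem and progenitor cells, with and without a heterozygous deletion of chromosome band 5A3. The genes were chosen by their level in these same libraries: those that the deposited table types as snoRNA and lists at 1 FPKM (fragments scaled by gene length and library depth) or more in at least 4 libraries. Of 237 snoRNA genes among 30025 genes in the table, 202 met this rule and are called members here, and 35 did not. By name, 90 members were box C/D RNAs, 79 box H/ACA RNAs, 21 Cajal body RNAs and 12 had a name that gives no class. The members nearest above the threshold, by the 4th highest FPKM of each, were SNORA69 at 1.05, AL807823.1 at 1.11 and SNORA41 at 1.13, and those nearest below were snoU105B at 0.944, Snord107 at 0.924 and SNORA50 at 0.795.

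The libraries came from C57BL/6J mice 12.42 to 13.85 weeks old, 5 wild type (WT) and 5 carrying 1 deleted copy of the interval (5A3+/del), with no treatment. From each mouse 3 populations were sorted: CD150hi haematopoietic stem cells (HSC), CD150lo HSC and CD150neg multipotent progenitors (MPP), each with 5 libraries per genotype except 5A3+/del CD150neg MPP with 4. The deletion is germ line and rests on a single engineered allele, made in embryonic stem cells by Cre recombination between loxP sites at Fbxl13 and Srpk2, so every cell type of the animal carried it. RNA was amplified before library construction and sequenced in pairs without a record of strand, and each replicate is a separate mouse. In bulk RNA, fewer cells of a type and less RNA per cell cannot be told apart.

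Box C/D snoRNAs guide 2′-O-methylation of other RNAs together with the methyltransferase fibrillarin, and box H/ACA snoRNAs guide pseudouridylation together with dyskerin. Most target ribosomal RNA in the nucleolus, while Cajal body RNAs (scaRNAs) direct the same modifications to spliceosomal small nuclear RNAs, and a few box C/D RNAs such as U3 and U8 act in cutting the ribosomal RNA precursor instead. In mammals most are released from introns of a host gene, often one for a ribosomal or translation protein, so that host transcription and RNA processing both set their level.

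The sequences on which the results turn are printed 5′ to 3′ from the mm9 genome (NCBIM37) at the GENCODE vM1 loci. Scarna13 (U93, a Cajal body RNA with a pair of box H/ACA domains, chr12:106269285-106269559, minus strand) was the member with the smallest p between genotypes. Snord118 (U8, chr11:68886929-68887063, plus strand) took the most fragments. SNORD113 (chrX:61749759-61749832, plus strand) differed most between populations, and its near copy lies at chr12:110884339-110884412, plus strand, in an intron of Rian. SNORD112 (chr12:110844667-110844743), AF357355 (chr12:110892837-110892908) and AF357425 (chr12:110874222-110874294), all on the plus strand, are the members placed within Rian. Capitals mark ACA within the last 6 bases in Scarna13, and in the others TGATGA within the first 15 bases (the C box) and CTGA within the last 15 bases (the D box).
Scarna13: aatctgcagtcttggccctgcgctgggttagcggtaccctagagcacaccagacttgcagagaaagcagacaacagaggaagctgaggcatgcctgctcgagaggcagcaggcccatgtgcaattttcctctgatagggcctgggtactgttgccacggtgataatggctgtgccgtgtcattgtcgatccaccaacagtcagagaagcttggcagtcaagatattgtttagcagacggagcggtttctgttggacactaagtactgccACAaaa
Snord118: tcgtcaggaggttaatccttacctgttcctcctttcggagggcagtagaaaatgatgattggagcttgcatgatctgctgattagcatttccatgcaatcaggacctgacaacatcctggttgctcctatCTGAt
SNORD113: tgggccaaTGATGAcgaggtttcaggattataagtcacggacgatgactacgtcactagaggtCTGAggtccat
SNORD113 copy in Rian: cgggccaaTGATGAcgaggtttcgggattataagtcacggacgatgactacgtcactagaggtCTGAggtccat
SNORD112: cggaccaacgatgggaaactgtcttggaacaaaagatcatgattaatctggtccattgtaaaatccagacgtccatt
AF357355: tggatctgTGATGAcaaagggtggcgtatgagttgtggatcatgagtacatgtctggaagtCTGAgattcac
AF357425: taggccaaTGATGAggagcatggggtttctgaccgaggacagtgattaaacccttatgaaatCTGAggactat

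SNORD113 and its copy in Rian differed at 2 of 74 bases, T1C and A24G, counted from the 5′ end with the base of the X locus written first. SNORD112 held neither box in these windows, which says only that these letters are not there. TGATGA and CTGA in these windows occurred together on the RNA strand in 16.8% of the 1552 snoRNA loci of the annotation, in 49% of the member loci of the box C/D class (50 of 102) and in 1.05% of the box H/ACA loci. ACA within the last 6 bases occurred in 46.6% of all loci, in 70.5% of the member loci of the box H/ACA class (67 of 95) and in 11.8% of the box C/D loci. On the opposite strand the shares over all loci were 0% and 8.44%. The motifs were searched separately, and a locus could hold both. The names and the letters of the loci thus divided the members in the same direction, without every locus of a class holding its motif.

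Of the 202 members, 186 had a single annotated locus, 15 had several and AL807823.1 had none. A same-strand intron held 145 members, 31 lay between genes, 14 lay in an intron of a gene on the other strand and the other 11 placed members lay in exons or at loci of mixed position. For 153 members a host gene on the same strand was in the table, 120 hosts in all. Another locus of the genome matched the sequence of 23 members at 95% identity over 95% of the length, and for SNORD50, Snora19 and AL808027.2 a copy was identical, so fragments of these members are of uncertain origin. The interval deleted in 5A3+/del mice held no member. Its only annotated snoRNA was another locus named SNORA17, at chr5:21864982-21865095 on the minus strand, which is counted apart from the SNORA17 row of the table.

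Depth was 21229468 to 38797734 fragments per library with a median of 26967090, as estimated from the steps of the low FPKM values. Slamf1, which encodes CD150, was 9.97 to 22.6 FPKM in CD150hi, 0.180 to 2.64 in CD150lo and 0.00951 to 0.296 in CD150neg libraries. Cd48, whose product was absent from the gated cells by the study's methods, was 0 to 2.17 FPKM in CD150hi, 1.04 to 6.51 in CD150lo and 3.18 to 10.5 in CD150neg libraries. It was thus not absent as RNA and was highest in the last population. Summed T cell markers were at most 1.09 FPKM, B cell markers 6.20 to 32.2, erythroid markers 5.30 to 31.6, megakaryocyte markers 18.8 to 52.2 and granulocyte and monocyte markers 7.52 to 1252. WT mouse 3 stood apart by Xist, at 303, 234 and 319 FPKM where no other library exceeded 0.470. Its Y-linked Ddx3y was at most 0.0687 FPKM, against 12.6 or more in every 5A3+/del library. The labels give no sex, and a mouse with this pattern was in the WT group alone, so results are given without it where it changes a call. A pair of CD150hi libraries, 5A3+/del mouse 1 and WT mouse 2, had the fewest genes detected.

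The members together took 0.0481% to 0.0781% of all fragments, with a median of 0.0583%. In WT the share was 0.0487% to 0.0614% in CD150hi HSC, 0.0481% to 0.0678% in CD150lo HSC and 0.0564% to 0.0748% in CD150neg MPP. In 5A3+/del it was 0.0542% to 0.0612%, 0.0496% to 0.0781% and 0.0583% to 0.0749% in the same order. The ranges of all 6 groups overlapped. No test was made of this sum.

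A single RNA, Snord118, supplied 16.1% to 39.0% of the fragments of the members (median 26.8%). Snord118 is U8, which acts in the processing of the large subunit ribosomal RNAs. A separate member row named U8 had a median of 3 fragments. Snord118 has a near copy on chromosome 12, so it is among the members whose fragments are of uncertain origin. U3, which acts in the processing of the small subunit RNA and is counted here over 2 loci on chromosome 6, supplied 4.95% to 12.4% (median 8.60%). The median over the libraries was 4353 fragments for Snord118 and 1405 for U3. The next members by median fragments were the box H/ACA RNAs SNORA17 with 593, SNORA67 with 555, Snora31 with 428, SNORA32 with 334 and Snora24 with 318, and the box C/D RNAs snoZ40 with 332, Snord104 with 253 and snoU2_19 with 238. Snord104 and Snora24 lie between genes, whereas Snora31 lies in Tpt1, SNORA32 in Hibadh and snoZ40 in Taf1d. SNORA32 has 5 near copies elsewhere, so its fragments too are of uncertain origin. The SNORA17 row sums 12 loci on chromosome 18, so its median of 13.0 FPKM over 1537 bases is not the level of a single gene.

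Most members were read far less often. Their median was 17 fragments for box C/D RNAs (median length 83 bases), 40 for box H/ACA RNAs (133 bases), 21 for Cajal body RNAs (140 bases) and 4 for members without a class (98 bases). At the median depth, 1 FPKM corresponds to 2.24 fragments for the median length of box C/D RNAs and 3.59 for that of box H/ACA RNAs. Fragments could be recovered for 197 members, the exceptions being SNORD11, SNORD58, Snord11, Snord61 and AL807823.1. Of the 197, 11 had a median of 0 fragments, 64 a median of 10 or fewer, 55 a median of 50 or more and 27 a median of 100 or more. Only 79 had more than 3 fragments in each of the 29 libraries, and 134 to 175 members per library reached 1 FPKM. The fragments carry no molecular identifiers, so fragment numbers speak to counting error only. Longer members were read more often (Spearman's rho of length with median fragments 0.27 over 197 genes that share the libraries), while the value for length and FPKM was 0.04.

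The spread between replicates was wide for snoRNAs. The median standard deviation (SD) within groups was 0.84 on the log2(FPKM + 1) scale over the members, 0.33 over all 15409 genes tested and 0.30 over protein coding genes. It narrowed with depth: 0.94 for the 60 members with a median under 10 fragments, 0.85 for the 82 from 10 to under 50, 0.75 for the 28 from 50 to under 100 and 0.54 for the 27 at 100 or more. Snord100, a box C/D RNA of Rps12, was the single member of the 197 below the median of all genes, at 0.27.

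**Figure D1:**
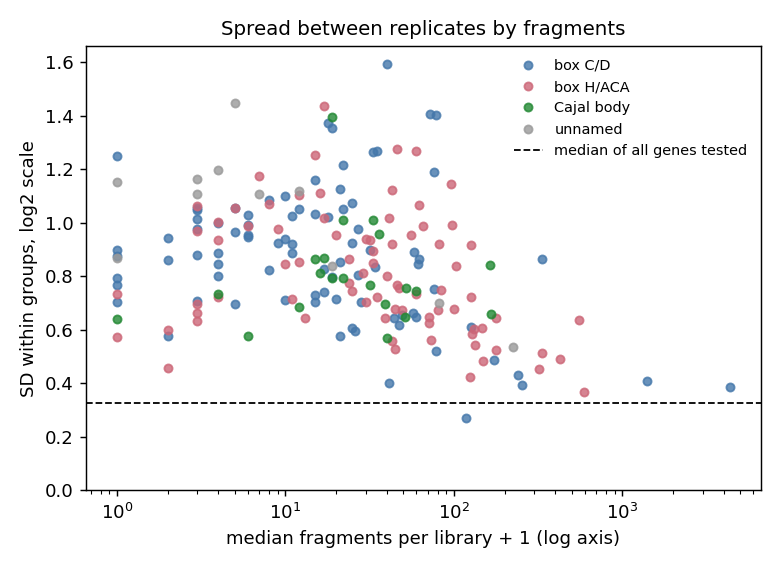
Each point is a snoRNA gene, with its median fragments per library plus 1 on a log x axis and its SD within groups on the log2 scale on the y axis, coloured by class. The dashed line marks the median of all genes tested, 0.33, and 1 point, Snord100 at 0.27, lies below it.

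The comparison of 5A3+/del with WT asked whether loss of 1 copy of the interval changed each RNA, population by population. Scarna13 was higher in 5A3+/del CD150hi HSC, and it was the only member that passed the test in any population. It was singled out with that result known, so its values in CD150hi HSC are a description. In WT CD150hi HSC Scarna13 was 1.01, 0.471, 0.801, 2.12 and 1.38 FPKM in mice 1 to 5. Among 5A3+/del CD150hi libraries it was 24.2, 8.23, 7.00, 2.59 and 12.5 FPKM. The groups did not overlap, but the lowest 5A3+/del library lay close to the highest WT library, and 5A3+/del mouse 1 stood far above the others.

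These values rest on 4 to 16 fragments in the WT libraries and 22 to 177 in the 5A3+/del libraries. The means were 1.16 ± 0.633 FPKM in WT and 10.9 ± 8.22 in 5A3+/del (SD, n = 5 each), a ratio of 9.41. On the log2(FPKM + 1) scale, which understates changes of low genes, Scarna13 was 2.19 higher (standard error 0.34, limma adjusted p = 0.0055), second by p among the 24 genes called of 15409. Of 18 alternatives 17 kept the call, with adjusted p values of 0.00041 to 0.0425, and voom on the recovered fragments gave 2.69 with an adjusted p of 0.0558. 5A3+/del mouse 1, the highest library, was also the 1 with the fewest genes detected in its group, and without it and the WT library with the fewest genes the difference was 1.80 (adjusted p = 0.0372). Without WT mouse 3 it was 2.08 (adjusted p = 0.0331).

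In the other populations the genotypes overlapped for Scarna13. CD150lo libraries of WT mice held 5.62, 5.49, 1.88, 4.15 and 4.99 FPKM and those of 5A3+/del mice 6.51, 4.69, 3.95, 7.84 and 4.81. The log2 difference was 0.29, with p = 0.286 in an exact two-sided permutation test over mice, whose smallest possible p is 0.00794. In CD150neg MPP Scarna13 was 8.91, 5.18, 9.54, 4.41 and 6.85 FPKM in WT and 7.84, 10.1, 3.30 and 4.51 in 5A3+/del. The log2 difference was -0.14, with p = 0.730 in the exact permutation test and a smallest possible p of 0.0159. In each of these populations the values of the genotypes were interleaved.

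By group mean, Scarna13 was lowest in WT CD150hi HSC (1.16 FPKM), followed by 4.43 in WT CD150lo, 5.56 in 5A3+/del CD150lo, 6.44 in 5A3+/del CD150neg, 6.98 in WT CD150neg and 10.9 in 5A3+/del CD150hi. Every group overlapped with its neighbour in this order. The lowest pair overlapped only through the WT CD150lo library of mouse 3 at 1.88 and the WT CD150hi library of mouse 4 at 2.12. The difference of the genotype effect between CD150hi and CD150neg was 2.32 (standard error 0.50), with an unadjusted p of 8.3e-05 and a limma adjusted p of 0.185 over all genes. Between CD150hi and CD150lo it was 1.90 (adjusted p = 0.999), so a difference of the effect between populations was not shown.

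Scarna13 lies between genes, 1340 bases from the start of Glrx5 on the opposite strand. Glrx5, a mitochondrial glutaredoxin, differed by -0.19 between genotypes in CD150hi HSC (standard error 0.35, limma adjusted p = 0.864). The transcript known as its host, Snhg10, was not analysed here, so Scarna13 could not be compared with a host transcript. A second row named SCARNA13 was below the FPKM threshold. Of 6 granulocyte and monocyte markers, all in the table, 4 had a higher median in WT CD150hi HSC (S100a8, S100a9, Mpo and Elane) and 2 a higher median in 5A3+/del. Their sum was 44.6 to 763 FPKM in WT CD150hi HSC (median 285) and 13.5 to 116 in 5A3+/del CD150hi HSC (median 15.7). S100a8 and S100a9 made up most of it, while Mpo and Elane had medians of 0.172 and 0.160 FPKM in WT and 0.0661 and 0.0963 in 5A3+/del, with a highest WT value of 19.7 and 19.1. Ly6c1 and Csf1r had medians of 0.141 and 0.342 FPKM in WT and 0.186 and 0.557 in 5A3+/del. The ranges of the sum overlapped. Their part in the result was not tested.

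**Figure D2:**
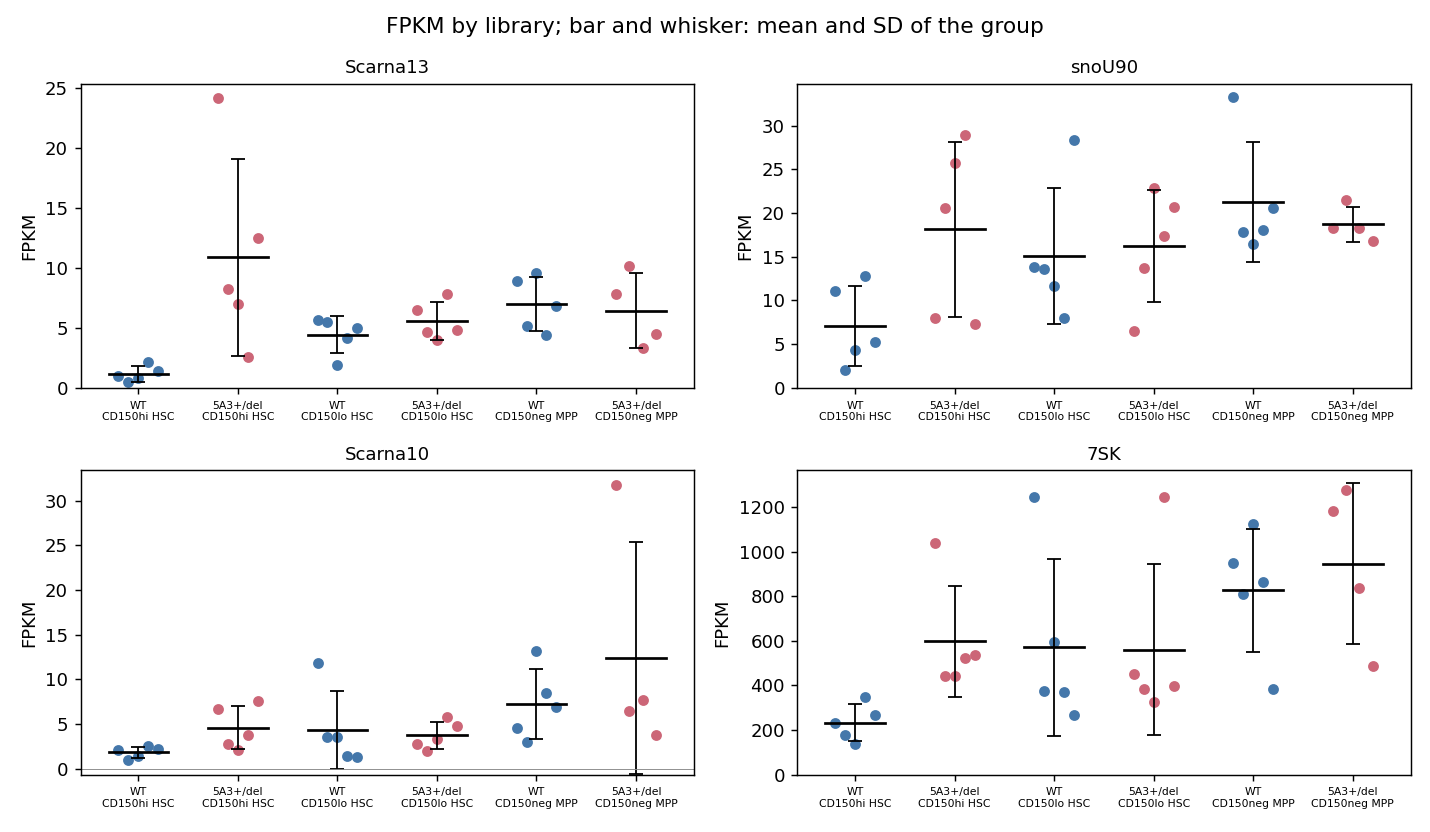
FPKM per library (points, blue WT and red 5A3+/del) of Scarna13, snoU90, Scarna10 and 7SK in the 6 groups, with the group mean (bar) and SD (whisker), on linear axes. Scarna13 is 0.471 to 2.12 FPKM in WT CD150hi HSC and 2.59 to 24.2 in 5A3+/del CD150hi HSC, and the other groups overlap.

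Over the whole class in CD150hi HSC, as many members were higher as lower. Of the 202 members 1 was called, Scarna13, against a background of 0.156% of all genes tested. The median log2 difference of the members was 0.00, as it was over all genes, and 101 of 202 were higher in 5A3+/del. At an unadjusted p under 0.05 there were 12 members higher and 8 lower, 9.90% of the members against 13.1% of all genes. The groups did not overlap for 3 members, Scarna13, Snord72 and SNORA43, against a background of 2.37% of all genes.

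Snord72, a box C/D RNA in an intron of the ribosomal protein gene Rpl37 (chr15:5068404-5068484), was 26.4, 22.001, 15.4, 42.8 and 38.8 FPKM in WT CD150hi HSC. In 5A3+/del it was 128, 49.6, 66.6, 49.9 and 86.8 FPKM, every library above the highest WT value. The log2 difference of 1.36 (standard error 0.37) had a limma adjusted p of 0.102 and did not pass. SNORA43, a box H/ACA RNA, went the other way, with 5.70, 11.4, 2.91, 5.25 and 4.79 FPKM in WT and 0, 0.281, 1.63, 0 and 2.13 in 5A3+/del. Its log2 difference was -1.97 (adjusted p = 0.318), and in CD150lo HSC it was 0.92, in the opposite direction.

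The largest negative difference in CD150hi HSC was that of SNORD20, a box C/D RNA in an intron of nucleolin (Ncl). SNORD20 was 0.990, 4.46, 8.26, 19.6 and 5.95 FPKM in WT and 0, 0, 1.41, 0.809 and 0.739 in 5A3+/del. The groups overlapped only through WT mouse 1, and the log2 difference was -2.21 (limma adjusted p = 0.115). Ncl itself differed by 0.37 in the opposite direction (adjusted p = 0.403). The other extremes, SNORA84 at -1.83 (adjusted p = 0.284), SNORD94 at 1.69 (0.186) and Snord13 at 1.51 (0.515), did not pass either and overlapped between genotypes.

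Cajal body RNAs went in both directions. In CD150hi HSC 9 of 21 were higher in 5A3+/del, with a median log2 difference of -0.02. After Scarna13 the largest positive difference was that of snoU90 (SCARNA7, a methylation guide for U1 small nuclear RNA, hosted by Kpna4). It was 11.1, 2.08, 4.39, 12.8 and 5.27 FPKM in WT CD150hi HSC and 8.00, 20.6, 25.7, 28.95 and 7.32 in 5A3+/del, 1.24 higher on the log2 scale with an adjusted p of 0.169 by limma. SCARNA4 at -1.28 (0.277) and Scarna17 at -1.04 (0.308) were lower without passing. Among other short nuclear RNAs, 7SK, the RNA that holds the elongation factor P-TEFb inactive, had a pattern like that of Scarna13 (named after its values were seen). 7SK was 230, 177, 138, 350 and 269 FPKM in WT CD150hi HSC and 1039, 444, 444, 522 and 536 in 5A3+/del, 1.48 higher (limma adjusted p = 0.0776). Of the 25 tested genes typed as miscellaneous RNA, 7SK among them, 5 had an unadjusted p under 0.05 there, 2 higher and 3 lower in 5A3+/del. Their median difference was 0.06, and none was called. None of 17 small nuclear RNA genes reached an unadjusted p under 0.05 in CD150hi HSC, and their median difference was 0.12.

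In CD150lo HSC limma called none of the 202 members, against a background of 0.0324% of all genes. Voom called none, and 18 members had an unadjusted p under 0.05 (10 higher and 8 lower), 8.91% against 6.87% of all genes. The median difference was 0.04 over the members and 0.01 over all genes. Snord98 was the single member whose groups did not overlap (background 1.49%), and its difference was -1.01 with an adjusted p of 0.850, lower in 5A3+/del. The largest differences were Snord110 at 1.59, SNORD111 at 1.41 and Snord73a at 1.34, and AC167122.1 at -1.65, SNORA28 at -1.49 and SNORD20 at -1.48. Snord110 was 7.20, 0, 1.17, 0.559 and 4.91 FPKM in WT and 7.18, 4.46, 10.2, 12.3 and 4.61 in 5A3+/del, so that the groups overlapped. SNORD20 was thus on the negative side in both HSC populations, while in CD150neg MPP its difference was 0.32.

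In CD150neg MPP limma again called no member, with a background of 0.0454%, and voom called none. All 10 members with an unadjusted p under 0.05 were lower in 5A3+/del, 4.95% of the members against 4.27% of all genes, which split into 351 higher and 307 lower. The median over the members was -0.11 and that over all genes 0.00, and 86 of 202 members were higher. The lowest adjusted p was that of Snora30, a box H/ACA RNA, at 0.584. Snora30 was 42.4, 49.8, 11.1, 31.9 and 38.2 FPKM in WT and 5.63, 5.96, 15.1 and 16.9 in 5A3+/del, with a log2 difference of -1.58, and WT mouse 3 lay within the 5A3+/del range. Snord88a, at -1.71 (adjusted p = 1.00), was the single member without overlap (background 1.49%), at 6.80, 10.4, 1.68, 2.24 and 2.16 FPKM in WT and 1.36, 0, 0 and 0.707 in 5A3+/del. SNORA84 was -1.60. On the positive side AF357425 was 1.28, SNORA77 1.13 and AC122546.2 1.11, none of them called.

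The genotype effect was also compared between populations. No member was called for CD150hi minus CD150lo, where 0% of all genes were called by limma. There 11 members had an unadjusted p under 0.05, 5.45% of the members against 3.98% of all genes. For CD150lo minus CD150neg 0 members and 0% of all genes were called. At an unadjusted p under 0.05 there were 10 members, 4.95% against 5.00% of all genes. For CD150hi minus CD150neg 0 members and 0% of all genes were called. Here 13 members had an unadjusted p under 0.05, 6.44% against 7.96% of all genes. Voom called no gene in these comparisons.

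**Figure D3:**
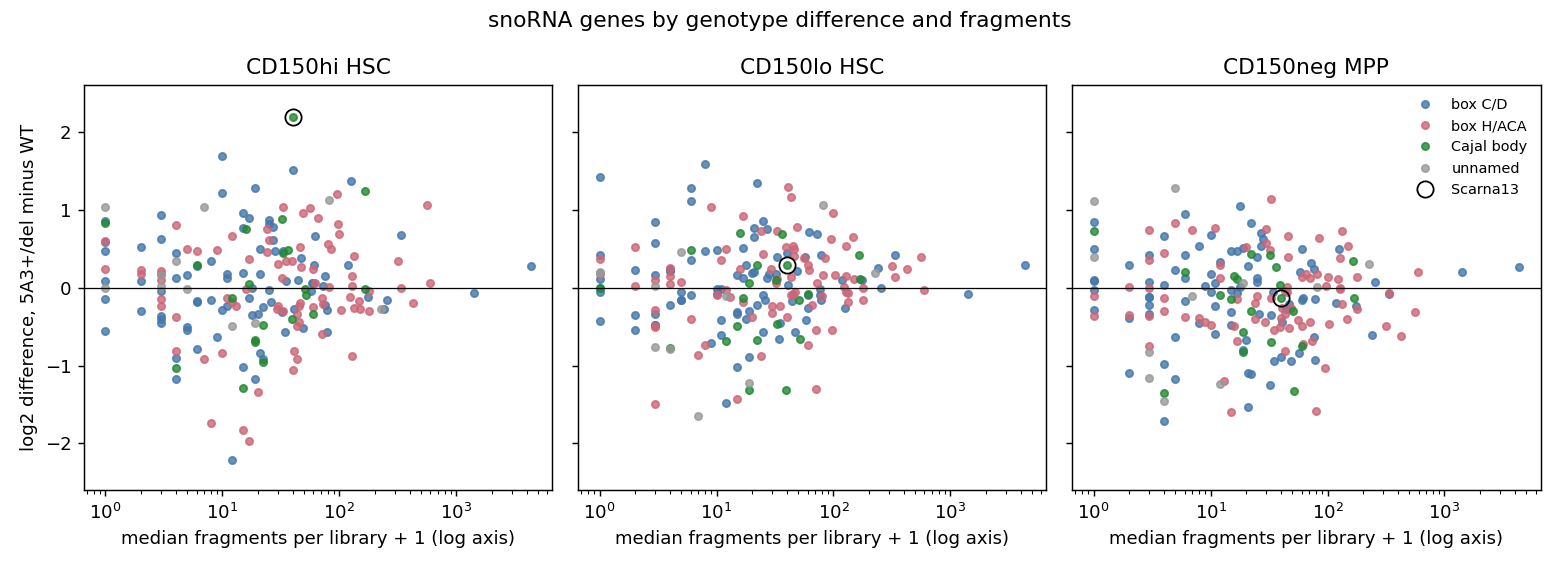
Log2 difference between 5A3+/del and WT (y axis) against median fragments per library plus 1 (log x axis) for 197 snoRNA genes in the 3 populations, coloured by class, with Scarna13 ringed. Scarna13 is at 2.19, 0.29 and -0.14 from the left panel to the right, and the other points spread to both sides of 0.

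The comparison of populations asked which of these RNAs differ along the step from CD150hi HSC to CD150lo HSC and CD150neg MPP. Here the clearest member was SNORD113, which was highest in CD150hi HSC in every mouse. It was 58.9, 79.3, 67.5, 55.2 and 36.8 FPKM in WT CD150hi HSC and 140, 79.1, 72.9, 72.1 and 148 in 5A3+/del. In CD150lo HSC it was 6.97, 5.70, 14.5, 11.3 and 9.52 FPKM in WT and 11.6, 30.8, 15.3, 9.17 and 21.6 in 5A3+/del. The CD150neg libraries held 0, 6.12, 9.78, 2.27 and 15.8 FPKM in WT and 6.04, 9.42, 8.68 and 6.88 in 5A3+/del. The lowest CD150hi library lay above the highest library of the other populations.

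SNORD113 was 2.53 higher on the log2 scale in CD150hi than in CD150lo HSC (standard error 0.34, limma adjusted p = 7.0e-06) and 3.53 higher than in CD150neg MPP (0.35, adjusted p = 2.1e-08). It was higher in 10 of 10 mice in the former comparison and in 9 of 9 in the latter. Both calls held under all 18 alternatives. The step from CD150lo to CD150neg was 1.00 (adjusted p = 0.341). Between genotypes the difference was 0.78 in CD150hi, 0.75 in CD150lo and 0.69 in CD150neg, with an adjusted p of 0.510 or more in each.

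The annotated SNORD113 locus of the table is on chromosome X with no gene around it, while its copy, different at T1C and A24G, lies in Rian and has no row of its own among those used here. Fragments of these loci cannot be told apart in the deposited values. Rian is a long noncoding RNA of the imprinted Dlk1-Meg3 domain whose introns hold an array of box C/D snoRNAs (chr12:110842155-110899919, plus strand). Rian was 4.67, 4.26, 2.22, 6.18 and 4.72 FPKM in WT CD150hi HSC and 5.50, 8.77, 5.82, 9.55 and 5.66 in 5A3+/del. In CD150lo HSC it was 1.76, 1.43, 0.661, 1.21 and 1.13 in WT and 1.52, 4.54, 2.06, 2.15 and 1.14 in 5A3+/del. In CD150neg MPP it was 0.195, 0.185, 0.975, 0.669 and 0.934 in WT and 1.29, 3.10, 1.27 and 0.920 in 5A3+/del.

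Rian thus followed the same order of populations as SNORD113, higher in CD150hi than in CD150lo HSC by 1.31 and than in CD150neg MPP by 1.71 (limma adjusted p = 9.9e-08 for the latter), again in 10 of 10 and 9 of 9 mice. Meg3, the neighbouring noncoding RNA of the domain, was higher by 1.16 and 1.27. The Rian and Meg3 calls against CD150neg MPP held in all 18 alternatives.

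**Figure D4:**
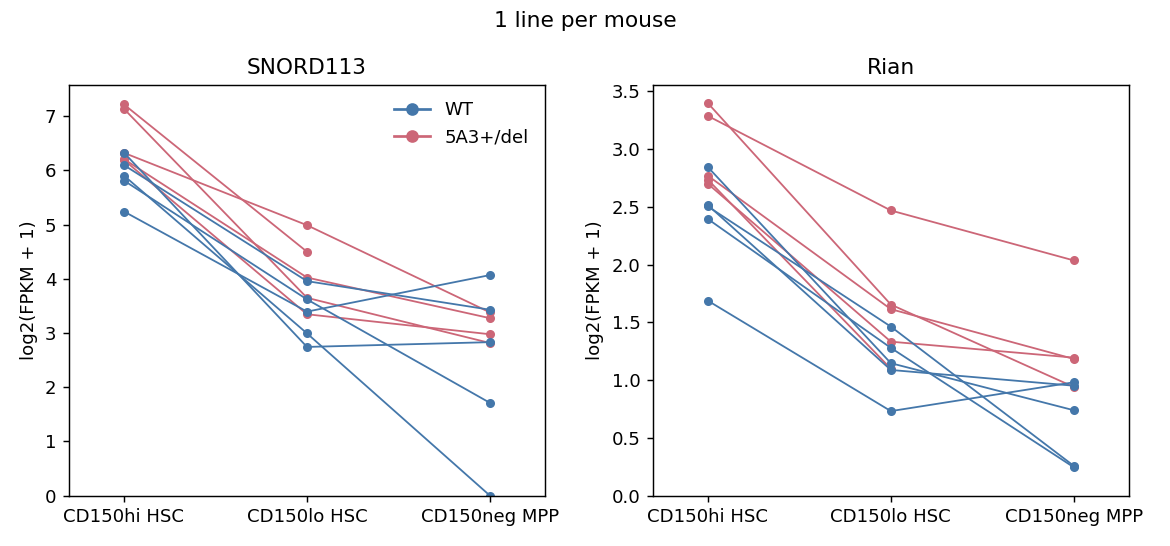
log2(FPKM + 1) of SNORD113 (left) and Rian (right) in the 3 populations, 1 line per mouse, blue for WT and red for 5A3+/del. Every line falls from CD150hi HSC to CD150lo HSC, 10 of 10 mice for both genes.

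The 3 members placed within Rian had few fragments. SNORD112 had 6, 14, 1, 3 and 0 fragments in WT CD150hi HSC and 118, 0, 13, 0 and 8 in 5A3+/del CD150hi HSC. Outside CD150hi HSC it had fragments in WT CD150lo mouse 5 (1), WT CD150neg mouse 3 (3) and 5A3+/del CD150neg mouse 3 (13), and 0 in every other library. It reached 1 FPKM in 6 CD150hi libraries and 2 others, so it met the threshold for members only with the CD150hi libraries, and a higher level there was favoured by that choice. Its difference of 1.68 between CD150hi and CD150lo HSC (limma adjusted p = 0.0476) was called in 5 of 18 alternatives, with adjusted p values of 0.0254 to 0.137. It was 1.22 without 5A3+/del mouse 1, whose CD150hi library held 118 of the fragments, and 3.48 with a pseudocount of 0.1. The call was also lost without 5A3+/del mouse 3 or 5, any single WT mouse or the 2 libraries with the fewest genes, with age, median scaling or voom, and without a filter on low values. AF357425 was 1.53 higher in CD150hi HSC than in CD150neg MPP (adjusted p = 0.115) and AF357355 0.91 higher (0.122), neither passing. AF357355 reached 1 FPKM in 5 CD150hi libraries and 1 other, so the same holds for it, whereas AF357425 did so in 10 and 11.

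Between CD150hi and CD150lo HSC limma called 2 members, SNORD113 and SNORD112, both higher in CD150hi, 0.990% of the members against a background of 7.64% of all genes. Nothing is read from the SNORD112 call, since that gene entered through CD150hi HSC. At an unadjusted p under 0.05 there were 15 members, 7.43% against 19.5% of all genes. Between CD150lo HSC and CD150neg MPP limma called none, against a background of 0.292%, and voom called none. There 8 members had an unadjusted p under 0.05, 3.96% against 7.93% of all genes. Between CD150hi HSC and CD150neg MPP limma called 4, SNORD113 higher and Scarna10, snoU90 and Snord118 lower in CD150hi. They were 1.98% of the members against a background of 13.2%. With the mouse as a replicate block this last comparison called 8 members, adding SNORA77, SNORA8, Scarna9 and Snord17. Without WT mouse 3 it called 1, SNORD113. The share called was below that of all genes in each of the 3 comparisons, and this difference was not tested.

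Lower levels in CD150hi HSC than in CD150neg MPP were common among the members: 125 of 202 were lower and 77 higher, with a median of -0.13 against 0.00 over all genes. Of the Cajal body RNAs 6 of 21 were higher, with a median of -0.45. By class the medians were -0.07 for box C/D, -0.13 for box H/ACA and -0.01 for members without a class. These counts describe the members and were not tested as sets.

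Scarna10 (U85, which carries both kinds of guide domain and acts on U5 small nuclear RNA) lies in an intron of the condensin gene Ncapd2 (chr6:125136377-125136701, minus strand). It was 2.07, 0.997, 1.36, 2.47 and 2.15 FPKM in WT CD150hi HSC and 6.70, 2.76, 2.09, 3.78 and 7.55 in 5A3+/del. In CD150neg MPP it was 4.49, 2.99, 13.2, 8.49 and 6.89 in WT and 31.8, 6.43, 7.67 and 3.72 in 5A3+/del. The difference between CD150hi HSC and CD150neg MPP was -1.17 (standard error 0.33, limma adjusted p = 0.0178), lower in 8 of 9 mice. The call was lost with voom, without 5A3+/del mouse 3 and without WT mouse 3, and held in 15 of 18 alternatives, with adjusted p values of 0.0104 to 0.0713. For Ncapd2 the difference was -0.41 (adjusted p = 0.173).

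snoU90 (chr3:68889027-68889369, minus strand) was lower in CD150hi HSC mainly through the WT libraries given above. In CD150neg MPP it was 33.2, 17.8, 16.4, 18.1 and 20.53 FPKM in WT and 18.3, 21.4, 18.3 and 16.8 in 5A3+/del. The difference between CD150hi HSC and CD150neg MPP was -0.87 (standard error 0.29, limma adjusted p = 0.0440), called in 8 of 18 alternatives (adjusted p 0.0238 to 0.157, the highest without the 2 libraries with the fewest genes), and that of its host Kpna4, an importin, was 0.00 (adjusted p = 0.990). The snoU90 call was lost on leaving out 5A3+/del mouse 1, 2, 3 or 5 or WT mouse 1, 2, 3 or 5, and without a filter on low values. Within WT the difference was -1.55 and within 5A3+/del -0.19, and the difference between these, 1.36, had a limma adjusted p of 0.5675.

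Snord118 was 824, 1002, 581, 912 and 1530 FPKM in WT CD150hi HSC and 999, 1005, 1217, 1185 and 1105 in 5A3+/del. In CD150neg MPP it was 820, 1817, 1301, 1257 and 1498 in WT and 1120, 1934, 1925 and 1369 in 5A3+/del. The populations overlapped, but 8 of 9 mice had less in CD150hi HSC. The difference was -0.54 (standard error 0.17, limma adjusted p = 0.0373), and 8 of 18 alternatives kept the call, with adjusted p values of 0.0226 to 0.118. It was lost on leaving out 5A3+/del mouse 2, 3 or 5 or WT mouse 2, 3 or 4, or the 2 libraries with the fewest genes, with median scaling or voom, and without a filter on low values. 7SK was also lower in CD150hi HSC than in CD150neg MPP, with a difference of -1.28 (limma adjusted p = 0.0012), in 8 of 9 mice.

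Comparison with host genes asked whether a snoRNA and the gene that carries it moved together. There were 144 pairs of a member and a host that both passed the filter, with 107 hosts. Per length, the snoRNA was above its host in 26 pairs and the median ratio of FPKM was 0.18. Recovery of RNAs as short as the members was not tested, so these ratios compare FPKM and not amounts in the cell. The highest ratio was that of snoU109 to St8sia2, at 34.7, and snoU2_19 stood at 14.5 times its host 5830418K08Rik. The snoRNA spread more widely between replicates than its host in 144 of 144 pairs, with a median SD of 0.85 against 0.22 on the log2 scale.

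Members of the same host differed in level. Among 26 hosts with more than 1 member, holding 63 members, the highest stood at a median of 3.52 times the lowest where this could be taken (24 hosts), and in 7 hosts at more than 5 times. In Taf1d, a subunit of the RNA polymerase I factor SL1, median FPKM was 7.59 for SNORA1, 15.7 for SNORD5, 25.0 for SNORA8 and 175 for snoZ40. In Gnl3, which encodes nucleostemin, it was 1.00 for SNORD19B, 14.2 for Snord69 and 26.1 for Snord19. In these hosts snoRNAs of a shared transcript had unequal FPKM, with a median of 2 fragments for SNORD19B. Fragments of a snoRNA and of host RNA that still holds the intron cannot be told apart in these values.

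No host was called between genotypes in any population by limma, while in CD150hi HSC 70 of 144 pairs had the same sign. Between CD150hi HSC and CD150neg MPP 9 of 107 hosts were called, 8.41% against 13.2% of all genes: Rian, Nbea, Eng, Eif2ak3, Eef1b2 and Gltscr2 higher, and Chd3, Ddx39b and Casp2 lower in CD150hi HSC. These hosts made 12 pairs, of which 8 had the same sign in the snoRNA. Leaving out snoRNAs that met the threshold only with CD150hi libraries, 5 of 9 pairs did. Rian was 1.71 higher and AF357425 1.53 higher, whereas Nbea was 1.27 higher and its SNORA69 0.29 higher, and Eif2ak3 was 0.36 higher and its SNORA5 differed by -0.51. No snoRNA of these 12 pairs was called.

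Over all 144 pairs the sign was shared in 87 between CD150hi HSC and CD150neg MPP and in 93 between CD150hi and CD150lo HSC. The Spearman correlation across pairs was 0.24 and 0.33 in these comparisons and 0.07 between genotypes in CD150hi HSC. Over the 35 pairs whose snoRNA had a median of 50 or more fragments, it was 0.37 between CD150hi HSC and CD150neg MPP (21 of 35 with a shared sign), 0.11 between CD150hi and CD150lo HSC (19 of 35) and 0.14 between genotypes. Of the members, 6 met the threshold only with CD150hi libraries, SNORD112 and AF357355 in Rian among them. A higher level in CD150hi HSC was favoured for these by that choice. They were not left out of the values over all 144 pairs. The pairs share libraries, and some share a host, so these values are a description.

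**Figure D5:**
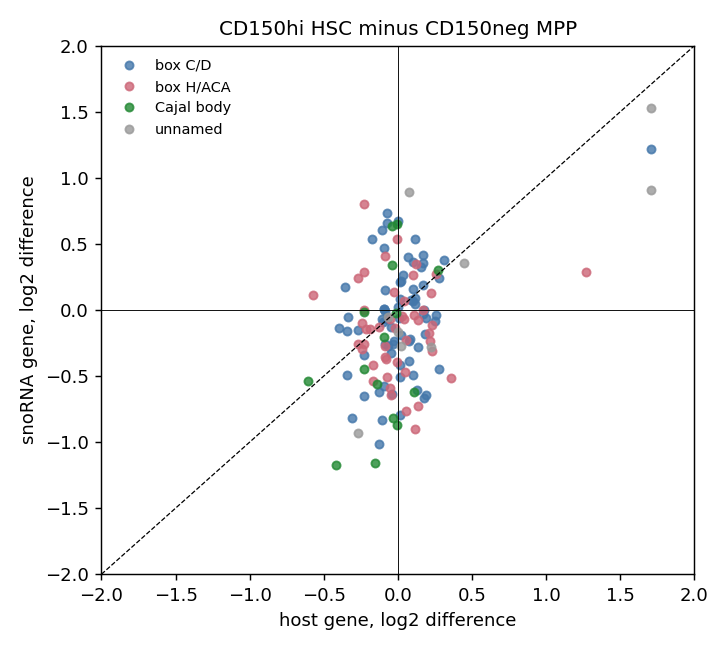
Log2 difference between CD150hi HSC and CD150neg MPP in the snoRNA (y axis) against that in its host gene (x axis) for 144 pairs, coloured by class, with the line of equal change dashed. The 3 points at the far right share the host Rian, at 1.71, and most other hosts lie close to 0 while their snoRNAs spread widely to both sides of 0. Of the Rian points, SNORD112 and AF357355 met the threshold for members only with the CD150hi libraries.

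Noncoding hosts known mainly for their snoRNAs had higher FPKM than most of the snoRNAs they carry. The untested recovery of RNAs this short limits these comparisons too. Gas5, a growth arrest transcript, was 117 to 280 FPKM over all libraries, whereas its member SNORD24 was 0 to 11.4. Snhg5, which holds a copy of SNORD50, was 46.5 to 105 FPKM and SNORD50 0.138 to 6.46. Snhg12 was 21.7 to 63.4 FPKM and its Snora16a 0 to 1.67, Snhg4 11.3 to 42.5 with SNORA74 at 1.15 to 21.3 and Snora74a at a median of 1.82, and Snhg9 1.23 to 12.4 with Snora78 at 0.248 to 11.1. None of these snoRNAs was called in any comparison. Of 11 host genes listed by name 6 were tested and none was called. Of all genes, 0.0324% to 0.156% were called between genotypes and 0.292% to 13.2% between populations. Between CD150hi HSC and CD150neg MPP 1 of the 6 was higher, with a median of -0.25.

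Of 33 listed proteins that build, modify or transport these particles, 32 were tested. In 5A3+/del CD150hi HSC 1 was lower, Pih1d1, a subunit of the R2TP complex that assembles box C/D particles, and none was higher. The background was 0.156% of all genes called there. Pih1d1 was 9.78, 20.4, 13.2, 18.2 and 18.6 FPKM in WT CD150hi HSC and 7.52, 6.96, 10.2, 6.94 and 7.78 in 5A3+/del. The groups overlapped through WT mouse 1 and 5A3+/del mouse 3, and the log2 difference of -0.90 (standard error 0.18, limma adjusted p = 0.0412) was called in 10 of 18 alternatives (adjusted p 0.0164 to 0.129, the highest without the 2 libraries with the fewest genes). Leaving out 5A3+/del mouse 1, 2, 4 or 5 or WT mouse 2 or 4, or taking the replicate number as a block, ended the call. No protein was called between genotypes in CD150lo HSC or CD150neg MPP, against backgrounds of 0.0324% and 0.0454% of all genes.

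Between CD150hi HSC and CD150neg MPP 2 of the 32 proteins were higher in CD150hi and none lower. The background was 13.2% of all genes called in either direction. Pih1d1 was 0.45 higher (limma adjusted p = 0.0221, called in 12 of 18 alternatives) and Nop10, a subunit of the box H/ACA particle, 0.30 higher (adjusted p = 0.0405, called in 7 of 18). These values average the genotypes. Within WT Pih1d1 was 0.99 higher, at 9.78 to 20.4 FPKM against 7.14 to 8.75, and within 5A3+/del its difference was -0.09, at 6.94 to 10.2 against 6.71 to 11.5. The difference between genotypes in this step was -1.08 (unadjusted p = 0.00037, limma adjusted p = 0.268). For Nop10 the step was 0.49 in WT and 0.10 in 5A3+/del, and their difference -0.39 (adjusted p = 0.635). The Pih1d1 call ended with voom and without 5A3+/del mouse 2 or 4, WT mouse 2 or 4 or the 2 libraries with the fewest genes, and the Nop10 call with median scaling or voom and without any single 5A3+/del mouse or WT mouse 1, 2, 4 or 5. The other 7 core proteins did not pass in any comparison: fibrillarin (Fbl), Nop56, Nop58 and Nhp2l1 of the box C/D particle, and dyskerin (Dkc1), Gar1 and Nhp2 of the box H/ACA particle. The median over the 32 proteins was 0.00 in this comparison and -0.05 between genotypes in CD150hi HSC.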

How the data were processed

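RNA-seq was made by the study from sorted cells of 10 mice (29 libraries), from RNA amplified with the Ovation V2 system and built into TruSeq libraries. The values are those the authors deposited, FPKM for each gene and library in 1 table, which per the submitters' processing notes was made with Bowtie 0.12.2 and HTSeq on mm9. How reads with several matches were handled is not given in the sources used here. Rows with family names in capitals can sum several loci of a chromosome and strand. RNA was cleaned on a column before amplification, and its recovery of RNAs this short was not tested.

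Every column was mapped to a sample by its label, and 0 columns had no sample. Genes that reached 1 FPKM in 4 libraries or more (15409) were expressed as log2(FPKM + 1), quantile normalized and fitted with limma 3.58.1 in R 4.3.3, with 6 group means over all 29 libraries. Tests were two-sided, with Benjamini-Hochberg adjustment over all genes and a threshold of 0.05 for a call. Population contrasts average both genotypes. The fit was checked on simulated data. Single values were tested with exact permutation tests (scipy 1.17.1). Whole fragments were recovered from FPKM, gene length and depth, with 98.4% to 98.9% of low values whole within 0.05, and were used for depth and for voom. Copies were sought with blastn 2.17.0, and loci, hosts and sequences were taken from GENCODE vM1 and the mm9 genome.

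Named genes were Scarna13, called members, the 10 members with most fragments, the 3 largest differences in each direction per genotype contrast, members of Snhg and Gas5 hosts, members next to the threshold, their hosts, and listed pathway genes that passed or were core proteins. A name outside this rule is marked or given with a count. The members and lists were chosen with earlier results of these data known. Libraries of different populations come from the same mice, which pairs them: deviations of libraries of the same mouse correlated at -0.04 to 0.23 (median 0.08, 28 pairs) over all genes. Replicate numbers shared by the genotypes name different mice. Alternatives were the pseudocount (0.1), the filter, the scaling, a variance trend, voom, a replicate block, age, and leaving out each mouse.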

Additional observations from a re-analysis of the deposited data

Results flagged for a closer look

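In 3 of 42 groups of values examined, a single library lay far from the rest. The rule flags about 1 in 20 groups of normally distributed values by chance. All 3 concern SNORD112, the box C/D RNA in Rian with few fragments. In each, every other library was at 0 FPKM. A single library with fragments then gives a gap near the whole range, so the rate of 1 in 20 does not apply. Gaps were taken on the quantile normalized log2 scale, where libraries at 0 FPKM take slightly different values. In WT CD150lo HSC mouse 5 was at 0.482 FPKM where the other mice were at 0, and its gap was 0.88 of the range. In WT CD150neg MPP mouse 3 was at 1.17 FPKM, with a gap of 0.946 of the range. In 5A3+/del CD150neg MPP mouse 3 was at 6.38 FPKM, with a gap of 0.977 of the range. These values rest on 1, 3 and 13 fragments.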

How the results depend on the processing

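Of 194 values of the main results recomputed under alternatives, 178 were kept, 13 counts moved, 2 changed sign and 1 lost its call. A count or the fragment share was taken as kept when close to its main value, without being equal. A difference was kept when its direction and side of the threshold held. Of 270 values for the other named differences, 209 were kept and 61 lost their call. With voom on recovered fragments no member was called between genotypes in CD150hi HSC (0), and Scarna13 there was 2.69 with an adjusted p of 0.0558. SNORD113 alone (1 member) was called between CD150hi and CD150lo HSC with age as a covariate, with median scaling, without a filter on low values, with voom, and without the 2 libraries with the fewest genes, the last chosen after seeing the data. Between CD150hi HSC and CD150neg MPP 2 members were called without a filter and 8 with the mouse as a replicate block. With the replicate number as a block Pih1d1 lost its call between genotypes in CD150hi HSC, while Scarna13 kept its difference of 2.19 there. The replicate blocks ended no other call among the named differences. At 10 FPKM in at least 4 libraries 119 genes would be members. The cause of these changes was not tested.

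Leaving out each mouse in turn gave 1 to 1 members called between genotypes in CD150hi HSC, 0 in CD150lo and 0 in CD150neg, 1 to 3 between CD150hi and CD150lo HSC (1 without 5A3+/del mouse 3, WT mouse 2 or WT mouse 3), 0 between CD150lo HSC and CD150neg MPP and 1 to 5 between CD150hi HSC and CD150neg MPP (1 without WT mouse 3). Scarna13 ranged from 1.84 to 2.55 in CD150hi HSC, 0.11 to 0.38 in CD150lo HSC and -0.37 to 0.09 in CD150neg MPP, where it changed sign without 5A3+/del mouse 3 (0.0874) and without WT mouse 3 (0.000744). Comparing Scarna13 with its host was not run because Snhg10 was not analysed here. Depth limits many members: 64 of 197 had a median of 10 fragments or fewer.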
